A study of Mus musculus with 15 samples.

Results

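The genes described here build or are carried by the microtubule transport and anchoring machinery: the subunits of cytoplasmic dynein and dynactin, the kinesins and their light chains, gamma-tubulin and its ring complex, augmin, the Cep family of centrosomal proteins, pericentrin, Pcm1 and the centrins. They were chosen by symbol alone, from the starts Kif, Klc, Dync, Dynl, Dctn, Cep, Tubg, Haus and Cetn together with Pcm1 and Pcnt, and 82 of the 9666 genes in the deposited table matched and are called members below. Of these symbols, Kif1bp and Cep83os name something else: Kif1bp encodes a protein that binds kinesins of the Kif1 group and is no motor, and Cep83os is a non-coding RNA next to Cep83. Messenger RNA levels were measured by sequencing in ventricular cardiomyocytes, the heart muscle cells of the lower chambers, isolated from mouse hearts. All mice were of the C57BL/6 strain and wild type, and the groups were postnatal day 1 (P1, 4 libraries), postnatal day 3 (P3, 4 libraries) and adults of 8 to 12 weeks (7 libraries). The study set neonatal against adult cells to find mediators of cardiac muscle regeneration. The labels do not tie each library to its own animal, so the p-values below measure the spread between these libraries, which may be technical.

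Kinesins and dynein are motors that burn ATP to walk along microtubules, most kinesins towards the plus end and dynein, with its activator dynactin, towards the minus end. The centrosome, a pair of centrioles in a protein matrix, nucleates microtubules through gamma-tubulin rings, and augmin adds new microtubules along the sides of old ones in the spindle. Rodent cardiomyocytes stop dividing soon after birth, and in the rat, around that time, pericentriolar proteins such as Pcm1 and pericentrin leave the centrosome for the nuclear envelope, which then anchors the microtubules.

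Markers of cell types were compared before the results. The 7 cardiomyocyte markers, among them Myh6, Tnnt2 and Ttn, summed to 3447 to 7475 RPKM (reads per kilobase of gene, scaled to the reads of the library) in P1 libraries, to 463 to 4346 RPKM in P3 libraries and to 11119 to 22559 RPKM in adult libraries. The P3 libraries did not stand together: replicate 1 had 4346 RPKM, while replicates 2, 3 and 4 had 898, 499 and 463 RPKM. The 8 endothelial markers analysed of 10, such as Pecam1 and Cdh5, summed to 198 to 468 RPKM at P1, 670 to 1607 RPKM at P3 and 2.37 to 198 RPKM in adults. In P3 replicates 3 and 4 the endothelial sum, 1175 and 1607 RPKM, was above the cardiomyocyte sum of the same library. The 4 fibroblast markers analysed of 8, such as Col3a1 and Postn, summed to 158 to 193 RPKM in P1 replicates 2 to 4 and 1331 RPKM in P1 replicate 1, to 367 to 791 RPKM at P3 and to 0.917 to 68.5 RPKM in adults. The 2 mural markers analysed of 5 reached 8.84 RPKM at P1, 12.6 RPKM at P3 and 66.9 RPKM in adults, and none of the 5 immune and 7 cycling markers was among the genes analysed. P3 results are therefore given also with replicate 1 as the only P3 library, a lone library assumed to vary like the other groups, and P1 results without replicate 1 where that moves them. In bulk RNA, fewer cells of a type and less RNA per cell cannot be told apart, and the part of other cell types in the differences below was not tested. Every gene in the deposited table stood above 0.1 RPKM in all 15 libraries, so a gene at or under that in any library is missing. The absence of the cycling markers and of other Kif genes is thus no measure of their level.

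**Figure D1:**
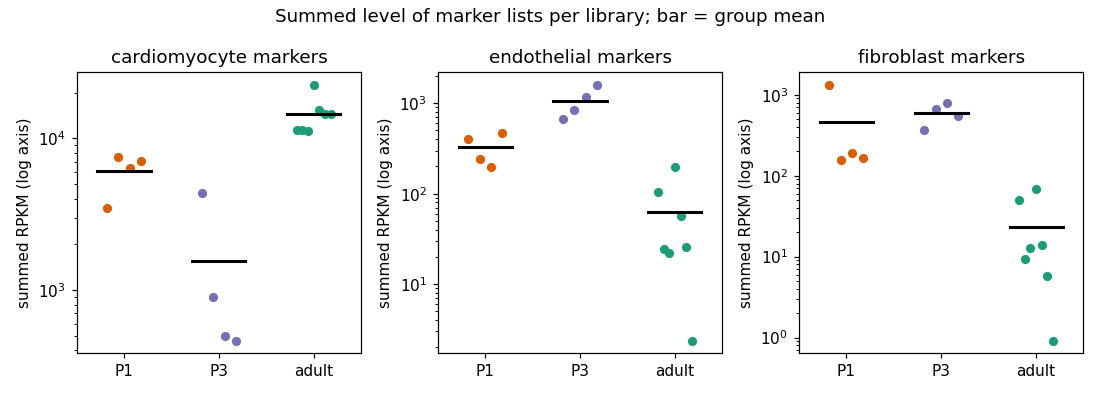
Summed RPKM (log axis) of cardiomyocyte, endothelial and fibroblast markers in each library of the P1, P3 and adult groups, with a bar at the group mean. Of the P3 libraries, 1 lies at 4346 RPKM of cardiomyocyte markers and the other 3 between 463 and 898, while the adult libraries lie between 11119 and 22559.

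Most genes stood higher in neonatal than in adult libraries. Differences are in log2(RPKM + 0.5) between group means, and the median of the 9389 genes tested had a difference of 1.36 for P1 against adults and of 1.48 for P3 against adults. A member counts as risen or fallen where limma's adjusted p (Benjamini-Hochberg, over all genes tested) was under 0.05 and the log2 difference was at least 1 in size. Scaling every library by its median ratio to the geometric mean of the genes, called median-of-ratios scaling below, brought these medians to 0.06 and 0.09. Values after that scaling, or their range over a group of members, are given beside the deposited ones where a member's call depends on it. Of the 82 members 74 passed the filter (1 RPKM in at least 4 of the 15 libraries) and 8 did not, namely Cep126, Cep131, Cep290, Cep57l1, Cep70, Cep83os, Cep97 and Tubg2.

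At P1, 43 of the 74 tested members (58.1%) rose against adults and 0 fell, while 62.7% of all genes tested rose and 4.32% fell. At P3, 44 (59.5%) rose and 1 (1.35%) fell, while 62.7% of all genes rose and 9.16% fell. By limma without adjustment, 61 members had p under 0.05 at P1, 3 of them lower, and 58 at P3, 4 of them lower. The share of members that rose is close to that of the whole table, and their median difference was 1.14 at P1 and 1.31 at P3, slightly under the median gene's. After median-of-ratios scaling 6 members rose and 13 fell at P1 (16.5% and 19.7% of all genes), and 8 rose and 18 fell at P3 (22.7% and 24.9% of all genes). Under quantile normalization 7 rose and 14 fell at P1 (17.5% and 18.1% of all genes), and 8 rose and 17 fell at P3 (24.9% and 23.2% of all genes). With libraries brought to an equal RPKM sum, 23 rose and 3 fell at P1 (41.4% and 9.19% of all genes), and 34 rose and 4 fell at P3 (50.0% and 13.2% of all genes). With P3 replicate 1 as the P3 group, 42 members rose and 2 fell against adults as deposited. The P1 and P3 comparisons share the same adult libraries, of which replicates 5 to 7 had more recovered reads than replicates 1 to 4. Against adult replicates 1 to 4 alone 48 members rose and 1 fell at P1 and 47 rose and 1 fell at P3, and against adult replicates 5 to 7 alone 36 rose and 1 fell at P1 and 40 rose and 3 fell at P3. For the unadjusted p, for P3 replicate 1 as the P3 group and for these adult subsets, the share of all genes is not given here. Those counts therefore show nothing particular to the members. Over all 82 members, every P1 library was above every adult library for 46 and below for 2 (63.6% and 4.78% of all genes), and every P3 library was above for 48 and below for 2 (63.0% and 7.84% of all genes).

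**Figure D2:**
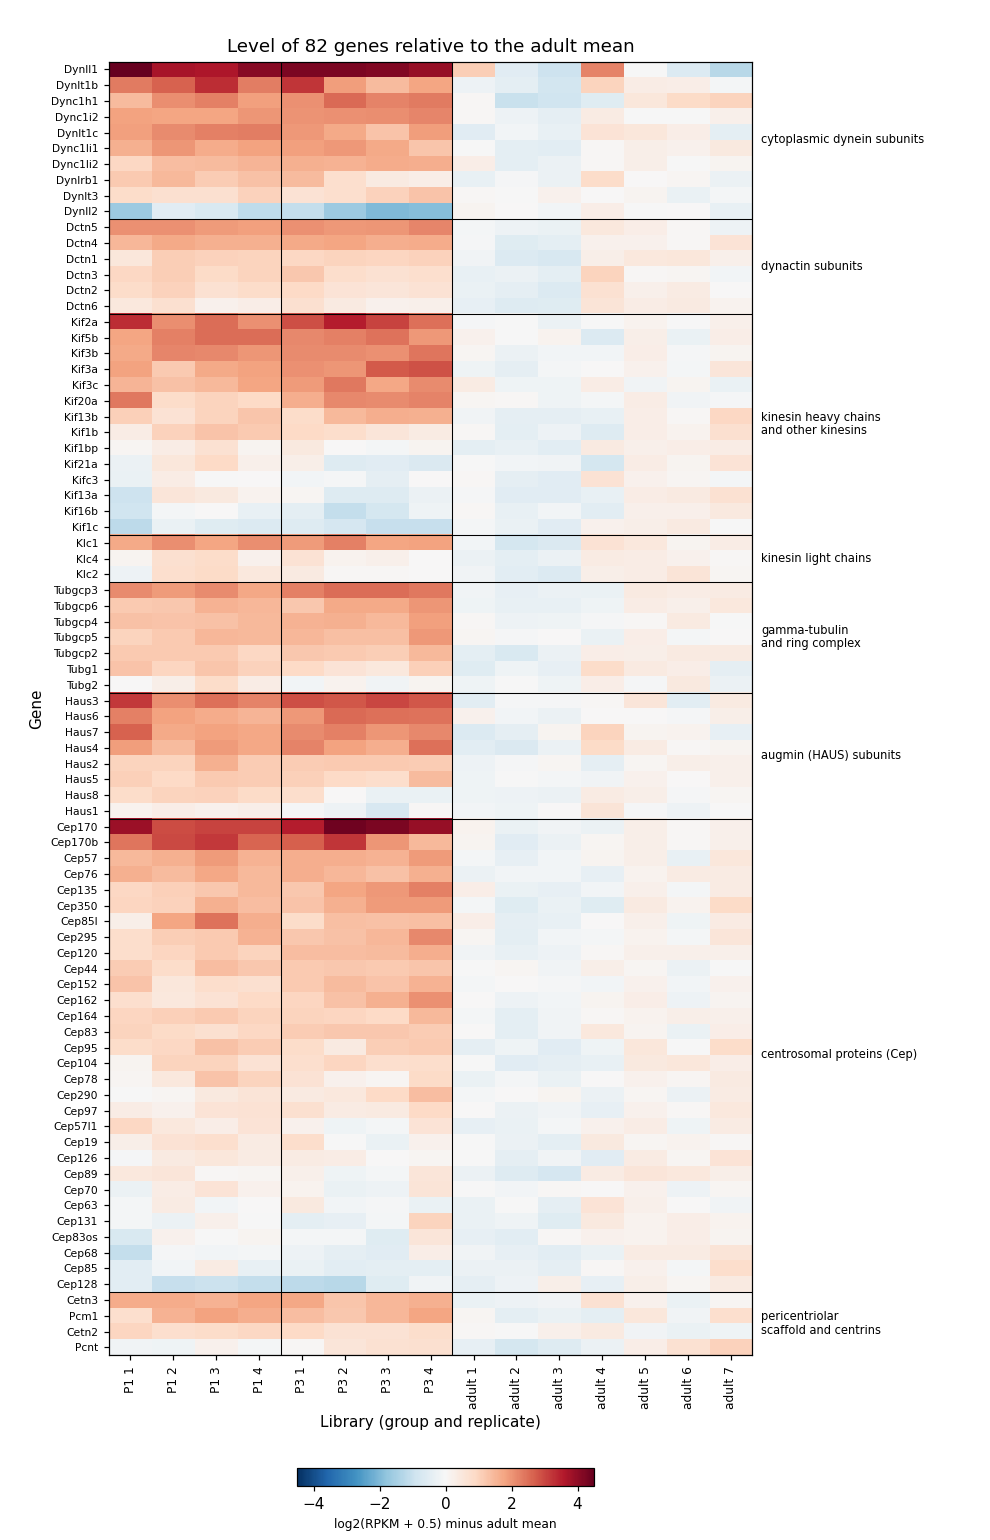
Level of each of the 82 genes (rows, grouped by role) in each of the 15 libraries (columns), as log2(RPKM + 0.5) minus the gene's adult mean. Dynll1 and Cep170 are the darkest red rows in P1 and P3 libraries, Dynll2 is the darkest blue one, and most other genes are pale red in both neonatal groups.

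Members whose call did not depend on the scaling were few. Under the deposited values and the 3 other scalings, 6 members rose at P1 and 0 fell, against 15.4% and 4.3% of all genes. They were Dynll1, Cep170, Cep170b, Dynlt1b, Kif2a and Haus3. At P3, 7 rose and 1 fell under all 4 scalings, against 21.8% and 9.15% of all genes. The 7 were Dynll1, Cep170, Cep170b, Kif2a, Haus3, Haus6 and Kif20a, and the 1 that fell was Dynll2. With P3 replicate 1 as the P3 group, all 8 kept their deposited call, Haus6 at 1.95 and Kif20a at 1.64. Dynll1, Dynlt1b and Dynll2 are subunits of dynein, Kif2a and Kif20a are kinesins, Haus3 and Haus6 belong to augmin and Cep170 and Cep170b to the Cep family. Cep170, Cep170b, Haus6 and Kif20a had no adult library at 1 RPKM and passed the filter only through their neonatal levels. They could thus be tested only because they stood higher there.

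**Figure D3:**
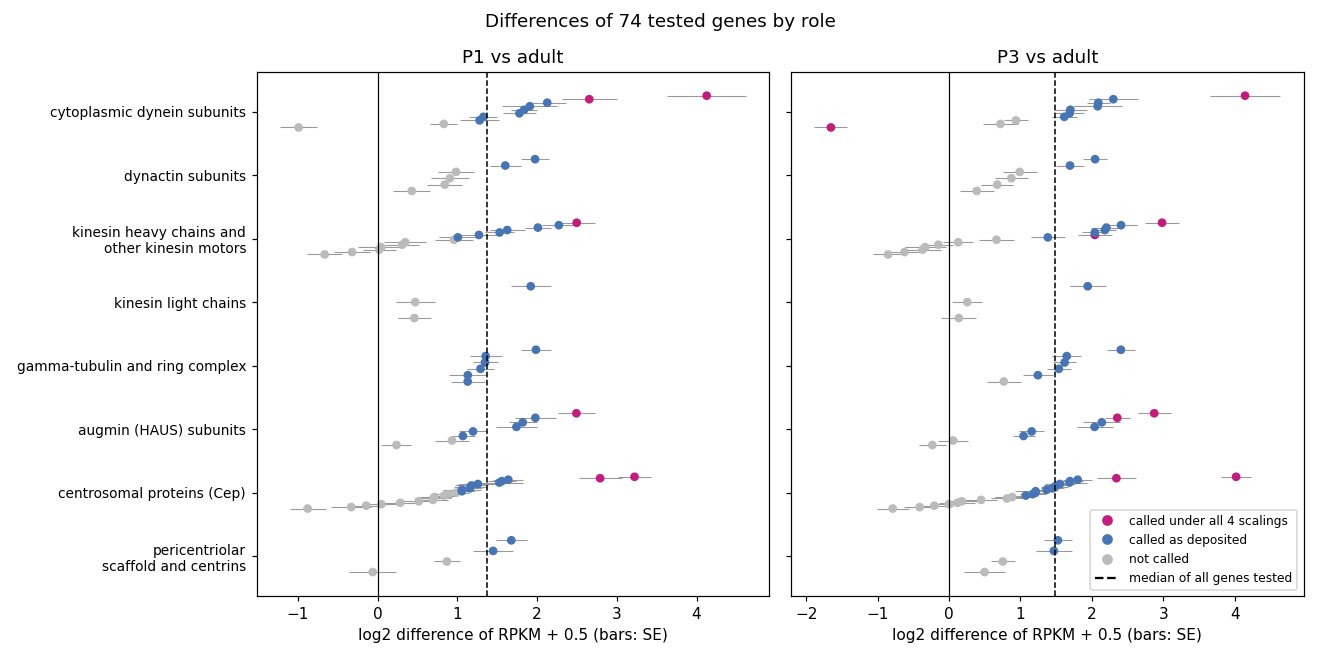
Log2 difference of each of the 74 tested genes between P1 and adult (left) and between P3 and adult (right), by role, with the standard error as a bar and the median of all genes tested as a dashed line. Most genes lie to the right of 0 on either side of the dashed line, Dynll1 and Cep170 lie farthest to its right in both panels, and Dynll2 lies farthest to its left.

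Cytoplasmic dynein held both the member with the greatest rise and the only one that fell with the deposited values. Of its 10 subunits 8 rose at P1, and 7 rose and 1 fell at P3, beside 62.7% of all genes that rose at each age. The small light chains of the LC8 type, Dynll1 and Dynll2, stood on opposite sides of the adult level. LC8 proteins form dimers that join dynein to cargoes and also bind many partners outside the motor. Dynll1 (chr5:115297110-115300999, minus strand, mm10) and Dynll2 (chr11:87979525-87987533, minus strand, mm10) are separate genes with coding sequences of equal length, 270 bases. They are printed here because the contrast between these genes carries the result, and capitals mark the 51 bases at which they differ.
Dynll1: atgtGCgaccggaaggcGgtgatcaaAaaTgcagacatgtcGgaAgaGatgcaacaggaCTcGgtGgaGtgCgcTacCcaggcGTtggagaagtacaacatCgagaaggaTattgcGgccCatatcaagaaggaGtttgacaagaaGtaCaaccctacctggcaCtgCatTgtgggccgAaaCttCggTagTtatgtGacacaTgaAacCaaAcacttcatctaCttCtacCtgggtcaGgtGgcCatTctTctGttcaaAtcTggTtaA
Dynll2: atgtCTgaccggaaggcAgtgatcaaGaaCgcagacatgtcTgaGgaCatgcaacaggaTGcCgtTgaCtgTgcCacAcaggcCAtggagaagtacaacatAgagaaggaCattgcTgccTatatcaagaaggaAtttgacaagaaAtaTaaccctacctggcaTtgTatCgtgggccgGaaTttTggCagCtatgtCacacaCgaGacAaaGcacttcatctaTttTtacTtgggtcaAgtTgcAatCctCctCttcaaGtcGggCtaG
The coding sequences are 81.1% identical, their longest identical run is 16 bases, and 0.0% of the 50-base words of either gene's transcripts occur in the other's. The coding sequences were built from the GENCODE annotation of mm10.

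Dynll1 stood at 94.7, 38.1, 35.8 and 49.9 RPKM in P1 replicates 1 to 4 and at 54.6, 54.3, 52.2 and 44.0 RPKM in P3 replicates 1 to 4. In adults it ranged from 0.721 to 13.1 RPKM, with a median of 1.56. The neonatal libraries were all above the highest adult library, and the adults themselves spread widely. The log2 difference was 4.13 (SE 0.49, limma adjusted p = 3.5e-07) at P1 and 4.15 (SE 0.49, limma adjusted p = 2.6e-07) at P3. After median-of-ratios scaling it was 2.74 at P1 and 2.67 at P3. Without P1 replicate 1, the library with the high fibroblast sum, the P1 difference was 3.83, and with P3 replicate 1 as the P3 group the P3 difference was 4.24. Within adults Dynll1 was highest in replicates 4 and 1 (13.1 and 5.74 RPKM), and lowest in replicate 7 (0.721 RPKM). Replicates 4 and 1 also had the highest adult sums of endothelial (198 and 104 RPKM), fibroblast (68.5 and 50.4 RPKM) and mural markers (66.9 and 49.0 RPKM), and replicate 7 had the lowest of each (2.37, 0.917 and 1.01 RPKM). Adult replicate 4 had the highest adult cardiomyocyte sum as well, 22559 RPKM, against 11415 RPKM in replicate 1 and 14474 RPKM in replicate 7. Its RPKM total over all genes, 280112, was also the highest of the adults. The part of other cells in the Dynll1 level was not tested.

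Dynll2 ran the other way. It stood at 23.6, 52.9, 45.6 and 33.6 RPKM in P1 replicates 1 to 4, at 35.3, 23.7, 18.2 and 19.5 RPKM in P3 replicates 1 to 4, and between 59.0 and 92.6 RPKM in adults with a median of 75.8. No neonatal library reached the lowest adult one. Dynll2 fell at P3, with a log2 difference of -1.65 (SE 0.23, limma adjusted p = 2.2e-06), and with P3 replicate 1 as the P3 group the difference was -1.07. At P1 the difference was -0.99 (SE 0.23, limma adjusted p = 6.4e-04), just short of the threshold of 1, and it passed under each of the other 3 scalings (-2.53 with median-of-ratios scaling), with a pseudocount of 0.1 and against adult replicates 1 to 4 alone (-1.08). Leaving out P1 replicate 2, P1 replicate 3, adult replicate 3 or adult replicate 7 carried it past the threshold (-1.16, -1.09, -1.01 and -1.05), and without P1 replicate 1 it was -0.78.

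Most other dynein subunits rose as well. Dynlt1b, a light chain of the Tctex type, stood at 32.1, 40.2, 64.9 and 31.8 RPKM in P1 replicates 1 to 4, at 60.3, 23.6, 17.0 and 21.9 RPKM in P3 replicates 1 to 4 and at 3.13 to 12.4 RPKM in adults (median 5.56). Neither neonatal group overlapped the adults, and the log2 difference was 2.65 (SE 0.34, limma adjusted p = 9.8e-07) at P1 and 2.08 (SE 0.34, limma adjusted p = 1.6e-05) at P3. After median-of-ratios scaling Dynlt1b still rose at P1 (1.17) and no longer passed at P3 (0.53). Its deposited P3 difference was 3.23 with P3 replicate 1 as the P3 group. Its near copy Dynlt1c holds 76.3% of the 50-base words of Dynlt1b transcripts, so how reads were split between them is uncertain. Dync1h1, the heavy chain that carries the motor, had log2 differences of 1.91 at P1 and 2.30 at P3, and the intermediate chain Dync1i2 had 1.84 and 2.09. The light intermediate chains Dync1li1 (1.78 and 1.69) and Dync1li2 (1.32 and 1.61) rose likewise, as did Dynlt1c (2.13 and 1.70). After median-of-ratios scaling none of Dync1h1, Dync1i2, Dync1li1, Dync1li2 and Dynlt1c passed, with values of -0.16 to 0.73. Dynlrb1, the roadblock light chain and the dynein subunit with the highest mean RPKM at P1 and P3 (in adults it was Dynll2, at 75.2 RPKM), averaged 96.4 ± 9.91 RPKM in P1 libraries, 68.3 ± 26.1 RPKM in P3 libraries and 40.7 ± 13.2 RPKM in adult libraries (SD over 4, 4 and 7 libraries, as throughout). It rose at P1 as deposited (1.28, SE 0.24, limma adjusted p = 8.4e-05), while its sign turned under median-of-ratios scaling (-0.26). At P3 its difference was 0.72 (limma adjusted p = 0.01), and 1.42 with P3 replicate 1 as the P3 group. Dynlt3, the second Tctex-type chain, had 0.83 at P1 and 0.94 at P3, under the threshold, and passed at P3 without P3 replicate 1 (1.03) or replicate 2 (1.00).

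**Figure D4:**
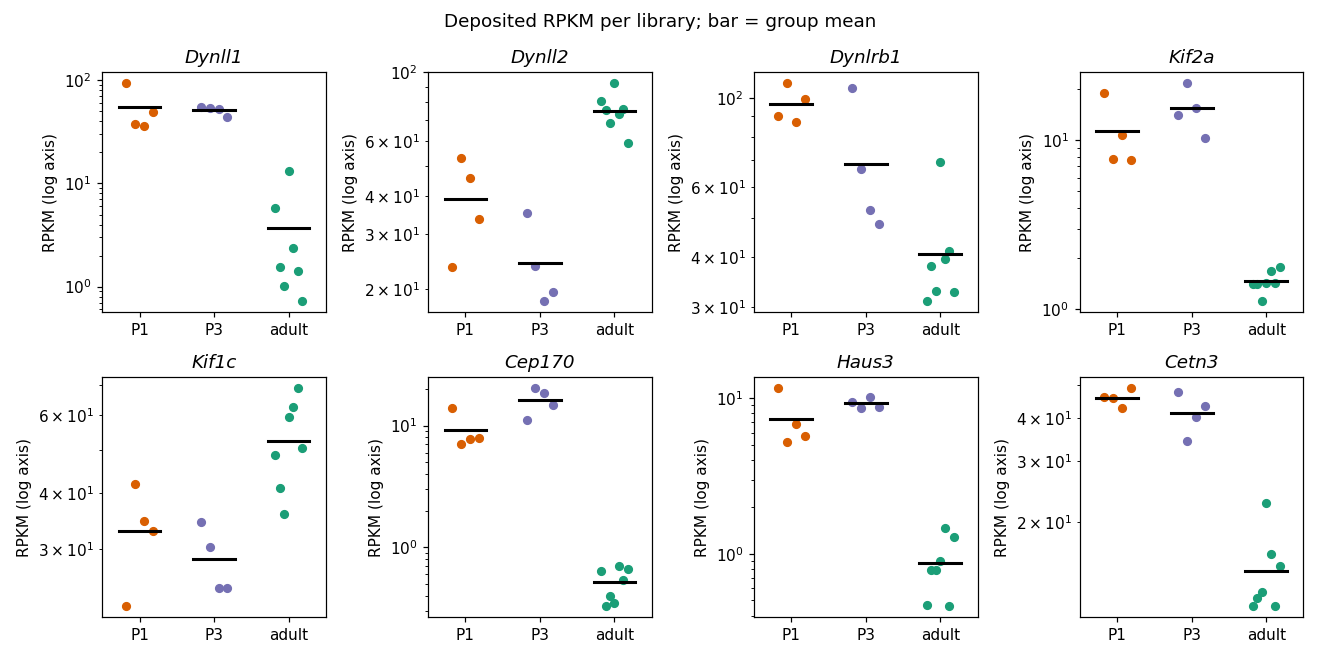
Deposited RPKM (log axis) of 8 genes in each P1, P3 and adult library, with a bar at the group mean. Dynll1, Kif2a, Cep170, Haus3 and Cetn3 lie higher in all neonatal libraries than in any adult library, Dynll2 lies lower, and Dynlrb1 at P3 and Kif1c at P1 overlap the adults.

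Of dynactin, the multi-subunit activator of dynein, 2 of the 6 subunits measured rose at each neonatal age, beside 62.7% of all genes. They were Dctn4 and Dctn5 of the pointed-end complex, with log2 differences of 1.60 and 1.97 at P1 and 1.69 and 2.05 at P3. Dctn2, the dynamitin subunit of the shoulder and the most abundant dynactin member, averaged 49.7 ± 4.86 RPKM in P1 libraries, 44.3 ± 5.02 RPKM in P3 libraries and 28.7 ± 9.46 RPKM in adult libraries (SD). Its highest adult library, at 44.9 RPKM, reached into both neonatal ranges, and its differences of 0.84 (SE 0.22, limma adjusted p = 0.0019) and 0.68 (SE 0.22, limma adjusted p = 0.0087) stayed under the threshold. Dctn1, the p150-Glued subunit that grips microtubules, had 0.90 and 0.99, just short of the threshold, and passed at P1 without P1 replicate 1 (1.04) and at P3 without P3 replicate 1 or without adult replicate 4, 5, 6 or 7 (1.01 to 1.08). Dctn3 had 0.98 and 0.87, and passed at P1 without P1 replicate 3 (1.02), at both ages without adult replicate 4 (1.15 and 1.04) and with P3 replicate 1 as the P3 group (1.23). The pointed-end subunit Dctn6 had 0.43 and 0.39. Under median-of-ratios scaling Dctn6 fell (-1.07 and -1.19) and neither Dctn4 nor Dctn5 passed (0.13 and 0.52 at P1, 0.14 and 0.50 at P3).

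Among the 14 Kif members, which include the kinesin-binding protein Kif1bp, 7 rose and 0 fell at each neonatal age, beside 62.7% of all genes that rose. Kif2a, a kinesin of the type that takes microtubule ends apart rather than walking, rose most. It stood at 19.1, 7.75, 10.8 and 7.64 RPKM in P1 replicates 1 to 4, at 14.1, 21.9, 15.6 and 10.4 RPKM in P3 replicates 1 to 4 and at 1.12 to 1.79 RPKM in adults (median 1.43). The lowest neonatal library was thus well above the highest adult one. Its log2 difference was 2.50 (SE 0.23, limma adjusted p = 1.9e-08) at P1 and 2.98 (SE 0.23, limma adjusted p = 1.2e-09) at P3, and 1.16 and 1.56 after median-of-ratios scaling. Without P1 replicate 1 the P1 value was 2.22, and with P3 replicate 1 as the P3 group the P3 value was 2.90. Kif2a shares 19.2% of its exon bases with other genes, among them Dimt1 on the opposite strand, and whether counting used the strand is not given in the sources used here.

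The cargo motors of the kinesin-1 and kinesin-2 classes rose together. Kif5b, the kinesin-1 heavy chain found in most tissues, averaged 61.6 ± 13.5 RPKM in P1 libraries, 57.9 ± 7.73 RPKM in P3 libraries and 12.4 ± 2.73 RPKM in adult libraries (SD), with log2 differences of 2.27 and 2.20. The kinesin-2 motor subunits Kif3a, Kif3b and Kif3c, of which Kif3a and Kif3b pair to drive transport into cilia, had 1.62, 2.01 and 1.53 at P1 and 2.41, 2.18 and 2.04 at P3. Kif3a stood at 5.04, 3.13, 4.66 and 5.13 RPKM in P1 replicates 1 to 4, at 6.07, 5.80, 10.4 and 11.0 RPKM in P3 replicates 1 to 4 and at 0.695 to 1.85 RPKM in adults (median 1.02). Its groups did not overlap, the SE was 0.22, and the limma adjusted p was 1.7e-06 at P1 and 8.3e-09 at P3. After median-of-ratios scaling Kif3a passed at P3 (1.06) and not at P1 (0.39), while Kif5b (0.76 and 0.61), Kif3b (0.78 and 0.87) and Kif3c (0.57 and 0.97) passed at neither age. Kif3c shares 40.7% of its exon bases with other genes, among them 1110002L01Rik on the opposite strand.

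The kinesins that did not rise were mostly of the kinesin-3 class, which carries vesicles. Kif1c, the kinesin with the highest mean RPKM in adults (in both neonatal groups it was Kif5b), stood at 22.3, 42.0, 34.6 and 32.9 RPKM in P1 replicates 1 to 4, at 34.5, 30.3, 24.5 and 24.5 RPKM in P3 replicates 1 to 4 and at 36.0 to 68.9 RPKM in adults (median 50.7). The P3 libraries were all below the adults, while P1 replicate 2 overlapped them. The log2 difference was -0.67 (SE 0.22, limma adjusted p = 0.0084) at P1 and -0.85 (SE 0.22, limma adjusted p = 0.0012) at P3, short of the threshold, and -2.19 and -2.46 after median-of-ratios scaling, where both passed. With P3 replicate 1 as the P3 group the deposited difference was -0.56. Kif16b had -0.32 and -0.62, Kif13a had 0.04 and -0.33, and the kinesin-4 member Kif21a had 0.34 and -0.37. Kif1b of the same class as Kif1c had 0.96 and 0.66, and Kif13b rose, with 1.00 and 1.38. The P1 call of Kif13b was lost without P1 replicate 1 or 4 or adult replicate 1, 2, 3 or 4 (0.92 to 0.98), its P3 call with P3 replicate 1 as the P3 group (0.83), and Kif1b passed at P1 without P1 replicate 1 (1.16) or adult replicate 5 or 7 (1.01 and 1.08). Kifc3, a minus-end kinesin, had 0.02 and -0.15, and Kif1bp had 0.31 and 0.13. After median-of-ratios scaling Kif16b (-1.73 and -2.08), Kif13a (-1.41 and -1.86), Kifc3 (-1.42 and -1.65) and Kif1bp (-1.14 and -1.39) fell at both ages, Kif21a fell at P3 (-1.65), and Kif13b did not pass (0.08 and 0.36). Kifc3 shares 27.5% of its exon bases with other genes.

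Kif20a, a motor needed for the last step of cell division, rose although it was low throughout. It stood at 3.07, 0.719, 0.886 and 0.777 RPKM in P1 replicates 1 to 4, at 1.66, 2.60, 2.54 and 2.73 RPKM in P3 replicates 1 to 4 and at no more than 0.380 RPKM in any adult. Its log2 differences were 1.27 at P1 and 2.04 at P3, with 0.90 at P1 once P1 replicate 1 was left out, which ends that call. After median-of-ratios scaling they were 0.55 at P1, not passing, and 1.14 at P3. Kif20a shares 29.3% of its exon bases with other genes, among them Cdc23 on the opposite strand.

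Kinesin light chains link kinesin-1 to its cargo, and only 1 of the 3 measured rose. Klc1 averaged 28.7 ± 3.96 RPKM in P1 libraries, 29.3 ± 4.70 RPKM in P3 libraries and 7.65 ± 2.89 RPKM in adult libraries (SD). Its lowest neonatal library, at 24.8 RPKM, was above the highest adult, at 11.6 RPKM, and its log2 differences were 1.92 (SE 0.25, limma adjusted p = 1.1e-06) at P1 and 1.94 (SE 0.25, limma adjusted p = 7.9e-07) at P3. After median-of-ratios scaling they were 0.44 and 0.38, under the threshold. Klc2 (0.47 and 0.14) and Klc4 (0.46 and 0.25) overlapped the adults, and both fell at P3 after median-of-ratios scaling (-1.38 and -1.22).

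Of gamma-tubulin and its ring complex, 6 of the 6 tested members rose at P1 and 5 at P3 with the deposited values, the exception being Tubg1, beside 62.7% of all genes at each age. Under median-of-ratios scaling none of the 6 passed in either direction. Tubg1, the main gamma-tubulin, stood at 13.2, 10.6, 12.8 and 11.1 RPKM in P1 replicates 1 to 4, at 10.1, 8.08, 7.33 and 11.5 RPKM in P3 replicates 1 to 4 and at 3.35 to 9.41 RPKM in adults (median 4.43). P1 lay above all adults, while P3 overlapped them. Its log2 difference was 1.13 (SE 0.24, limma adjusted p = 2.7e-04) at P1 and 0.77 (SE 0.24, limma adjusted p = 0.0063) at P3, and -0.32 and -0.75 after median-of-ratios scaling, so its sign depends on the scaling. The ring components Tubgcp3 (1.98 and 2.41), Tubgcp6 (1.35 and 1.65), Tubgcp4 (1.35 and 1.62), Tubgcp5 (1.29 and 1.54) and Tubgcp2 (1.13 and 1.24) rose at both ages, with -0.24 to 0.64 at P1 and -0.20 to 0.98 at P3 after that scaling, and Tubgcp4 shares 26.1% of its exon bases with other genes, among them Trp53bp1 on the opposite strand. Tubg2, the second gamma-tubulin, stayed under 1 RPKM in all libraries and was not tested.

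Augmin, a complex of 8 HAUS subunits, was measured in full, and 6 of its subunits rose at each neonatal age, beside 62.7% of all genes. Haus3 rose most: it stood at 11.6, 5.20, 6.84 and 5.73 RPKM in P1 replicates 1 to 4, at 9.53, 8.71, 10.1 and 8.79 RPKM in P3 replicates 1 to 4 and at 0.457 to 1.46 RPKM in adults (median 0.785). The P3 libraries lay close together, and all neonatal libraries were above all adults. Its log2 difference was 2.49 (SE 0.23, limma adjusted p = 1.5e-08) at P1 and 2.87 (SE 0.23, limma adjusted p = 1.5e-09) at P3, and 1.28 and 1.56 after median-of-ratios scaling. Without P1 replicate 1 the P1 value was 2.26, and with P3 replicate 1 as the P3 group the P3 value was 2.91. Haus7 (1.98 and 2.14), Haus6 (1.82 and 2.36), Haus4 (1.74 and 2.04), Haus2 (1.19 and 1.16) and Haus5 (1.07 and 1.04) rose as well. After median-of-ratios scaling Haus6 passed at P3 (1.27) and not at P1 (0.84), while Haus7 (0.68 and 0.76), Haus4 (0.71 and 0.92), Haus2 (-0.19 and -0.30) and Haus5 (0.06 and -0.02) passed at neither age. Haus5 shares 56.5% of its exon bases with other genes, and its P3 call was lost without P3 replicate 4 (0.92). Haus1, the subunit with the highest mean RPKM in adults (at P1 it was Haus8 and at P3 Haus3), did not pass: it averaged 7.71 ± 0.417 RPKM in P1 libraries, 5.55 ± 1.32 RPKM in P3 libraries and 6.59 ± 1.57 RPKM in adult libraries (SD), with differences of 0.23 and -0.23 (SE 0.19, limma adjusted p = 0.25 each). Under median-of-ratios scaling Haus1 fell at both ages (-1.21 and -1.73). Haus8, the subunit that binds microtubules, had 0.93 at P1 and 0.06 at P3, and fell at P3 after that scaling (-1.41).

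The Cep family was the group with the most members. Of 30, which include the non-coding Cep83os, 23 were tested. Of these 11 rose at P1 and 14 at P3 with 0 lower, beside 62.7% of all genes that rose at each age. Cep170, which sits on the appendages of the older centriole and binds microtubules, stood at 14.1, 7.10, 7.82 and 7.86 RPKM in P1 replicates 1 to 4 and at 11.1, 20.4, 18.5 and 14.8 RPKM in P3 replicates 1 to 4. In adults it never exceeded 0.706 RPKM, with a lowest value of 0.325 and a median of 0.533. The lowest neonatal library was thus far above the highest adult one. Its log2 difference was 3.22 (SE 0.21, limma adjusted p = 4e-10) at P1 and 4.02 (SE 0.21, limma adjusted p = 2.5e-11) at P3, and 2.08 and 2.78 after median-of-ratios scaling. Without P1 replicate 1 the P1 value was 3.01, and with P3 replicate 1 as the P3 group the P3 value was 3.53. Its paralog Cep170b stood at 4.67, 7.21, 8.45 and 5.51 RPKM in P1 replicates 1 to 4, at 5.86, 8.72, 3.39 and 2.23 RPKM in P3 replicates 1 to 4 and at 0.190 to 0.675 RPKM in adults (median 0.552). Its log2 difference was 2.79 (SE 0.27, limma adjusted p = 2.7e-08) at P1 and 2.34 (SE 0.27, limma adjusted p = 1.8e-07) at P3, and it too held under all scalings.

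Rises of the median gene's size were found in Cep57 (1.64 and 1.69), Cep76 (1.56 and 1.51), Cep350 (1.26 and 1.69), Cep135 (1.18 and 1.80) and Cep295 (1.16 and 1.55). Cep135 and Cep295 are needed to build and convert centrioles, and Cep152, which brings the centriole kinase Plk4 to the centriole, had 0.83 at P1 and rose at P3 (1.37). Cep44 (1.15 and 1.21), Cep164 (1.06 and 1.07) and Cep85l (1.53 and 1.21) also rose at both ages, Cep95 at P1 (1.06), and Cep83 (1.17), Cep120 (1.45) and Cep162 (1.48) at P3. After median-of-ratios scaling none of these 13 passed, and the calls lost had values of -0.09 to 0.45 at P1 and -0.33 to 0.79 at P3. The calls nearest to the threshold depended on single libraries: the P1 call of Cep95 was lost without P1 replicate 3 or adult replicate 1 or 3 (0.96 to 0.99), and it passed at P3 without P3 replicate 2 (1.04) or adult replicate 7 (1.02). The call of Cep164 was lost at P1 without adult replicate 2 (0.99) and at P3 without P3 replicate 4 (0.95), and Cep120 passed at P1 without P1 replicate 1 (1.05) or adult replicate 5, 6 or 7 (1.02 each). With P3 replicate 1 as the P3 group, Cep162 (0.95), Cep164 (0.99) and Cep85l (0.83) lost their P3 calls. The centriole genes were low throughout: Cep135 ranged from 1.15 to 1.87 RPKM at P1, from 1.51 to 3.65 RPKM at P3 and from 0.173 to 0.603 RPKM in adults. Cep295 shares 19.1% of its exon bases with Taf1d, annotated on the opposite strand. Cep85l shares 7.3% of its exon bases with other genes, among them Pln on the opposite strand. In P1 replicate 1 Cep85l stood at 0.884 RPKM, within the adults, which reached 0.975 RPKM. Cep63, a partner of Cep152 and the Cep member with the highest mean RPKM in adults (in both neonatal groups it was Cep170), averaged 7.65 ± 1.40 RPKM in P1 libraries, 7.44 ± 1.76 RPKM in P3 libraries and 7.52 ± 2.01 RPKM in adult libraries (SD). Its differences were 0.05 (SE 0.20, limma adjusted p = 0.84) and -0.00 (SE 0.20, limma adjusted p = 0.99) as deposited, and -1.40 and -1.52, both passing, after median-of-ratios scaling. The linker protein Cep68 (-0.33 and -0.21) and Cep85 (-0.15 and -0.41) had similar values, with -1.72 and -1.53 at P1 after median-of-ratios scaling, where both passed, as they did at P3 (-1.67 and -1.85). Cep19 (0.18) and Cep89 (0.12) fell at P3 after that scaling only (-1.25 and -1.14). Cep128, a subdistal appendage protein, had the lowest difference of the family, -0.88 at P1 and -0.79 at P3, with every P1 library, 0.296 to 0.712 RPKM, below the adults, 0.762 to 1.70 RPKM. It passed at P1 without P1 replicate 1 (-1.02) and at P3 with P3 replicate 1 as the P3 group (-1.19), and at both ages after each of the 3 rescalings, with a pseudocount of 0.1 and against adult replicates 5 to 7 alone. In all, 12 tested members, Cep135, Cep152, Cep162, Cep164, Cep170, Cep170b, Cep295, Cep85l, Haus5, Haus6, Kif20a and Kif3c, had no adult library at 1 RPKM. They passed the filter only through their neonatal levels.

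Of the pericentriolar scaffold proteins and the centrins, Pcm1 and Cetn3 rose at both ages. Pcm1, the core of the centriolar satellites, averaged 11.4 ± 3.31 RPKM in P1 libraries, 11.3 ± 1.96 RPKM in P3 libraries and 3.94 ± 1.58 RPKM in adult libraries (SD). Its lowest P1 library, at 6.69 RPKM, met the highest adult, at 6.70 RPKM, its log2 differences were 1.45 and 1.47, and after median-of-ratios scaling they were 0.02 and -0.04. Pericentrin (Pcnt), the scaffold that holds gamma-tubulin rings, overlapped the adults at both ages, with -0.06 at P1, where it fell after median-of-ratios scaling (-1.38), and 0.50 at P3. Cetn3, a centrin of the centriole lumen and the most abundant of the 4, stood at 46.0, 45.7, 42.8 and 49.0 RPKM in P1 replicates 1 to 4, at 47.8, 34.3, 40.4 and 43.5 RPKM in P3 replicates 1 to 4 and at 11.3 to 22.6 RPKM in adults (median 12.5). All neonatal libraries were above the adults, with log2 differences of 1.68 (SE 0.19, limma adjusted p = 2.3e-07) and 1.52 (SE 0.19, limma adjusted p = 6.2e-07), and 0.16 and -0.07 after median-of-ratios scaling, where neither passed. Cetn2 had 0.87 and 0.75, with both neonatal groups above the adults.

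Between the neonatal ages no member passed both thresholds: 0 of 74 rose and 0 fell in P3 against P1, beside 1.4% and 5.31% of all genes. Those shares were unstable: leaving out 1 library at a time, 15 to 300 of all genes were higher and 60 to 889 lower. By limma 13 members had an unadjusted p under 0.05, 9 higher and 4 lower in P3, and 3 had an adjusted p under 0.05. Of these Cep162 was higher in P3 (0.78, limma adjusted p = 0.03), as was Cep170 (0.80, limma adjusted p = 0.043), and Haus8 was lower (-0.87, limma adjusted p = 0.03). Haus8 stood at 8.50, 4.74, 3.68 and 3.74 RPKM in P3 replicates 1 to 4, against 8.60, 9.77, 10.1 and 8.99 RPKM in P1 replicates 1 to 4, so the P3 library with the highest cardiomyocyte sum was also the one nearest to P1. Every P3 library was above every P1 library for 7 of the 82 members and below for 2, against 10.4% and 2.57% of all genes. Without P1 replicate 1, Cep170 (1.01) and Kif20a (1.14) passed, without P3 replicate 1 Haus8 (-1.12) passed, and with P3 replicate 1 as the P3 group no member and no other gene passed.

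A ratio of related genes within a library does not change when the whole library is multiplied by a factor. In 11 pairs, the difference in mean log2 ratio was tested between groups by a two-sided exact permutation test, adjusted over the 33 tests (Benjamini-Hochberg). The smallest p that 4 against 7 libraries allow is 0.003, and 0.029 for 4 against 4. Of the pairs, 9 differed at P1 and 7 at P3 from adults, and 0 differed between P3 and P1. Beside the other tests here, a lone pair at p = 0.029 by exact permutation in P3 against P1 would not have passed after adjustment. That 0 therefore says less than the counts against adults. How many unrelated gene pairs of the table would differ likewise was not counted, and both Klc pairs share Klc1. The counts of pairs thus show nothing particular to these genes.

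Dynll1 over Dynll2 moved most. The ratio of RPKM was 4.01, 0.720, 0.785 and 1.49 in P1 replicates 1 to 4, between 1.55 and 2.86 in P3 and between 0.0122 and 0.141 in adults. The LC8 transcripts were thus mostly Dynll2 in every adult library and more evenly shared, with either gene ahead, in P1 libraries, while Dynll1 was ahead in every P3 library. The mean log2 ratio was higher by 5.49 at P1 and by 6.18 at P3 than in adults (exact permutation, adjusted p = 0.0083 each), and in P3 replicate 1, the P3 library with the highest cardiomyocyte sum, the ratio was 1.55. Klc1 rose over both other light chains: the mean log2 ratio to Klc2 was 1.64 ± 0.47 in P1 libraries, 2.01 ± 0.31 in P3 libraries and 0.14 ± 0.33 in adult libraries (SD), so that this ratio differed from adults by 1.50 and 1.87, and the log2 ratio to Klc4 by 1.50 and 1.74 (exact permutation, adjusted p = 0.0083 each). Kif1b over Kif1c was higher by 1.69 and 1.58, and Dctn5 over Dctn6 by 1.65 and 1.76 (exact permutation, adjusted p = 0.0083 each). In P3 replicate 1 the ratio was 3.23 for Klc1/Klc2, 3.91 for Klc1/Klc4, 0.354 for Kif1b/Kif1c and 0.989 for Dctn5/Dctn6, each above all adults. Kif13a over Kif13b was lower, by -1.69 at P1 (exact permutation, adjusted p = 0.013) and -2.57 at P3 (exact permutation, adjusted p = 0.0083). Its ratio was 7.41 in P3 replicate 1, 2.24 to 2.88 in P3 replicates 2 to 4 and 10.4 to 25.1 in adults. P1 libraries, at 2.71 to 12.2, overlapped the adults. Cetn2 over Cetn3 was lower by -0.81 and -0.77 (exact permutation, adjusted p = 0.013 each), with a ratio of 0.348 in P3 replicate 1, below all adults. Dynlt1b over Dynlt3 was higher by 1.91 at P1 (exact permutation, adjusted p = 0.0083), and by 1.21 at P3 without passing (exact permutation, adjusted p = 0.078). Its ratio was 2.94 in P3 replicate 1, 0.630 to 1.08 in P3 replicates 2 to 4 and 0.211 to 0.946 in adults. Dync1li1 over Dync1li2 was higher by 0.45 at P1 (exact permutation, adjusted p = 0.044) and by 0.06 at P3 (exact permutation, adjusted p = 0.71). Kif3a over Kif3b and Tubg1 over Tubg2 did not pass at either age, Kif3a over Kif3b with -0.48 and 0.18 and Tubg1 over Tubg2 with 0.31 and 0.75, and Tubg1 and Tubg2 share 11.0% and 14.3% of their 50-base words.

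**Figure D5:**
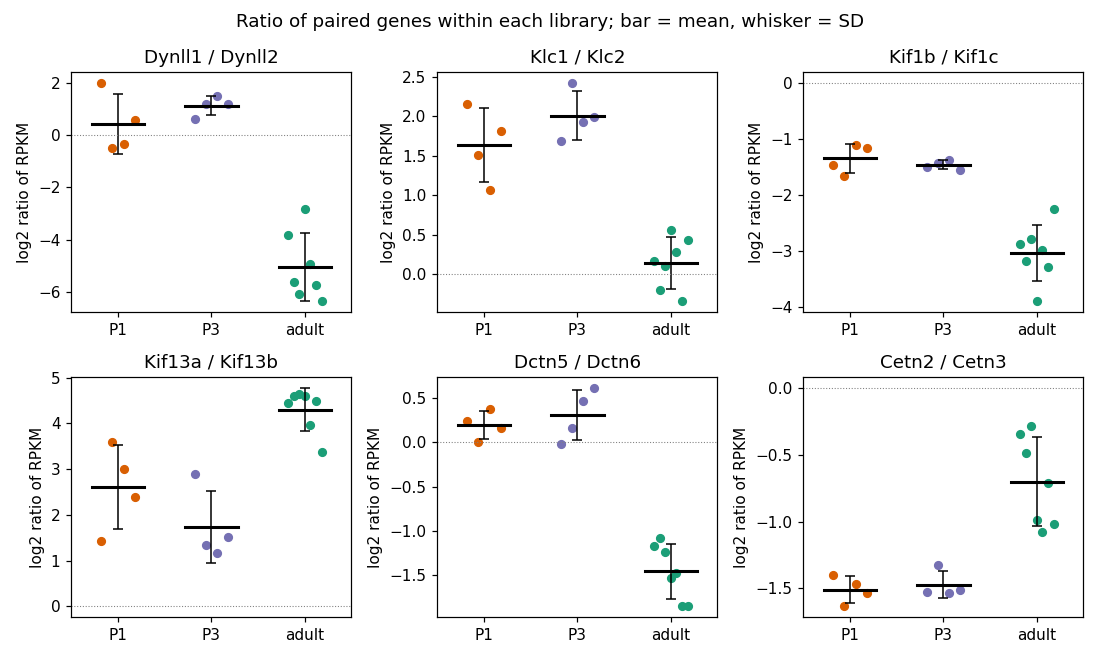
Log2 ratio of RPKM of 6 gene pairs in each P1, P3 and adult library, with the group mean as a bar and the SD as a whisker. Dynll1/Dynll2 is near 0 or above in neonatal libraries and below -2.8 in all adults, and for the pairs Klc1/Klc2, Kif1b/Kif1c, Dctn5/Dctn6 and Cetn2/Cetn3 neonatal and adult libraries do not overlap.

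The promoters of members that held under all scalings were read to show what surrounds their starts. RefSeq (GRCm38.p6) gave a promoter for 63 of the 82 members, and the 250 bases before the start were searched on both strands for CCAAT, the box bound by NF-Y, for GGGCGG, the core of the Sp1 box, and for TTTGAA, the core of the cell-cycle element CHR. CCAAT occurred in 44.4% of the members and in 34.5% of all 27025 promoters, GGGCGG in 66.7% and 32.9%, and TTTGAA in 6.3% and 16.3%. The 27025 include promoters of genes absent from the deposited table, and the shares among the 9666 genes of the table were not counted. Whether these shares are particular to the members was thus not tested. Of the 6 promoters available for members that rose under all 4 scalings at either age, 3 held CCAAT, 4 held GGGCGG and 0 held TTTGAA. The promoter of Dynll1 (chr5:115300991-115301240, minus strand) holds 2 CCAAT boxes, and that of Kif1c (chr11:70700298-70700547, plus strand), which did not rise, holds 0. The promoters of Cep170, Cep170b and Kif2a, which rose, also hold 0. Those of Dynll1 and Kif1c are printed as examples with and without the box, with CCAAT on either strand in capitals.
Dynll1 promoter: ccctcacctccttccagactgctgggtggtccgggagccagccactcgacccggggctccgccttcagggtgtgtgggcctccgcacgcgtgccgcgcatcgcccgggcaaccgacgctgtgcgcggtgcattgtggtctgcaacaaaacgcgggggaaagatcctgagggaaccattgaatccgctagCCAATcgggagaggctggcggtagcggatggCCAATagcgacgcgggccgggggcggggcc
Kif1c promoter: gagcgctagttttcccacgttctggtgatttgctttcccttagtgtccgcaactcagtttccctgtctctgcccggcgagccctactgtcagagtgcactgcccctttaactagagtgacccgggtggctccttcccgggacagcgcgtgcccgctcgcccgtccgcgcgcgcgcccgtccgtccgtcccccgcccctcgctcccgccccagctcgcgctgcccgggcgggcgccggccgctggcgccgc
These matches describe the letters in these windows and name no factor as bound there.

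The other genes of the pathway that are no members by symbol were counted by list, and each count stands beside 62.7% of all genes that rose and 4.32% that fell at P1, and 62.7% and 9.16% at P3. Of 18 tested adaptors and regulators of dynein and kinesin 9 rose and 0 fell at P1, and 9 rose and 1 fell at P3. Ndel1, which activates dynein together with Lis1, averaged 33.0 ± 13.0 RPKM in P1 libraries, 49.6 ± 10.8 RPKM in P3 libraries and 6.46 ± 2.25 RPKM in adult libraries (SD), with log2 differences of 2.26 and 2.89. The dynein activator Hook3 (1.24 and 2.01) and the lysosomal kinesin linker Arl8b (1.42 and 1.63) rose too, while the mitochondrial adaptor Rhot2 had -0.54 at P1 and fell at P3 (-1.50), which was lost with P3 replicate 1 as the P3 group (-0.96). Of 21 tested genes of centriole assembly and the centrosome 9 rose and 1 fell at P1, and 11 rose and 1 fell at P3. Plk4, the kinase that starts centriole duplication, rose by 1.70 and 2.52, and ninein (Nin), which anchors microtubules at the centriole, by 1.91 and 2.65. Pde4dip, known as myomegalin and a scaffold of the Golgi, centrosome and sarcomere, fell by 1.58 at P1 and fell by 3.14 at P3. It averaged 27.2 ± 13.3 RPKM in P1 libraries, 8.68 ± 5.71 RPKM in P3 libraries and 76.0 ± 31.1 RPKM in adult libraries (SD), and it also fell in P3 against P1 (-1.56, limma adjusted p = 0.047). With P3 replicate 1 as the P3 group it fell against adults (-2.03) and no longer passed against P1 (-0.45).

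Of the 7 tested nuclear envelope anchors 5 rose at P1 and 6 at P3, and 0 fell. Lamin A/C (Lmna) rose by 2.99 and 2.86, nesprin-2 (Syne2) by 1.59 and 2.34 and emerin (Emd) by 1.75 and 1.74. The spindle assembly list held 20 genes, of which 5 were in the deposited table. Of these 5, all tested, 3 rose and 1 fell at P1, and 4 rose and 1 fell at P3. Tacc1 rose by 1.82 and 2.42, Zw10 of the kinetochore by 1.43 and 1.89, and Tacc2 fell (-1.68 and -1.69). Tacc2 averaged 6.38 ± 1.01 RPKM in P1 libraries, 6.52 ± 2.21 RPKM in P3 libraries and 29.4 ± 24.5 RPKM in adult libraries (SD), and with P3 replicate 1 as the P3 group it did not pass (-1.46). Of 22 tested microtubule-associated proteins 10 rose and 1 fell at P1, and 10 rose and 3 fell at P3. Stathmin (Stmn1), which sequesters tubulin, rose by 3.13 and 3.31, Map1s by 2.84 and 3.05 and the plus-end protein Mapre1 (EB1) by 2.65 and 2.79, while Map1lc3a, an autophagosome protein despite its name, fell (-1.33 and -2.39). Of 16 tested tubulin-modifying enzymes and cofactors 11 rose and 1 fell at P1, and 10 rose and 2 fell at P3, among them the tubulin folding cofactor Tbcd (2.04 and 2.74), Ttll12 (2.53 and 2.60) and the detyrosinating enzyme Vash1 (1.30 and 2.91), with the deglutamylase Agtpbp1 lower (-1.60 and -2.02). Vash1 spread widely at P3, with 14.2 ± 12.0 RPKM against 3.35 ± 0.858 RPKM at P1 and 1.38 ± 1.40 RPKM in adults (SD). With P3 replicate 1 as the P3 group its difference from adults was 1.87. Syne2, Map1s, Tbcd and Ttll12, like Nin, averaged under 1 RPKM in adults (0.422 to 0.926 RPKM). After median-of-ratios scaling Lmna, Stmn1, Map1s, Mapre1 and Ttll12 still rose at both ages, and Tacc2, Pde4dip, Map1lc3a and Agtpbp1 still fell. Ndel1, Plk4, Nin, Syne2, Tacc1, Tbcd and Vash1 then rose at P3 alone (1.01 to 1.61) and did not pass at P1 (0.16 to 0.91), and Rhot2 fell at both ages (-2.05 and -3.05). Hook3 (-0.04 and 0.61), Arl8b (-0.09 and 0.03), Zw10 (0.07 and 0.43) and Emd (0.27 and 0.18) passed at neither age.

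The counts by list under that scaling stand beside 16.5% of all genes higher and 19.7% lower at P1, and 22.7% and 24.9% at P3. Of the 18 adaptors and regulators 0 rose and 4 fell at P1, and 1 rose and 5 fell at P3. Of the 22 microtubule-associated proteins 3 rose and 9 fell at P1, and 4 rose and 9 fell at P3. The centriole and centrosome genes had 0 higher and 1 lower at P1 and 2 and 1 at P3, and the nuclear envelope anchors had 1 and 0 at P1 and 2 and 1 at P3. The spindle assembly genes had 0 and 1 at P1 and 1 and 1 at P3, and the tubulin-modifying enzymes had 1 and 2 at P1 and 4 and 2 at P3. The counts that follow, with P3 replicate 1 as the P3 group, have no share of all genes beside them. With the deposited values, taking P3 replicate 1 as the P3 group, 8 of the 18 adaptors and regulators rose and 0 fell, as did 9 and 1 of the 21 centriole and centrosome genes, 5 and 0 of the 7 anchors, 4 and 0 of the 5 spindle assembly genes, 10 and 1 of the 22 microtubule-associated proteins and 10 and 2 of the 16 tubulin-modifying enzymes.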

How the data were processed

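Ventricular cardiomyocyte RNA was sequenced after TruSeq library preparation, per the labels' protocols. The authors deposited 1 table of RPKM values with 15 library columns, and HISAT2, Partek 6.6 and the mm10 genome are named in the submitters' processing notes. The annotation, the counting rule and the use of strand are unstated: none is given in the sources used here.

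Genes with at least 1 RPKM in 4 libraries (9389 of 9666) were tested on log2(RPKM + 0.5), a scale that understates changes of low genes, with limma 3.58.1 in R 4.3.3 (trended variance, all 3 groups in 1 fit, Benjamini-Hochberg over all genes tested). A call needs an adjusted p under 0.05 and a log2 difference of at least 1. Log2 ratios of gene pairs were tested by exact permutation. The alternatives were 3 other scalings, no filter, pseudocounts of 0.1 and 1, adult replicates 1 to 4 or 5 to 7 alone, a replicate block and leaving out each library. P3 replicate 1 as the P3 group, and median-of-ratios scaling without the filter, were added after seeing the data. The limma procedure was tested on simulated data.

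The RPKM values of 85.7% of genes were whole multiples of 1 read (relative tolerance 3e-05) and 0.0% after 1% noise was added. The recovered denominators were, in units of 1000000 reads, 10.5 to 11.2 for P1, 9.4 to 13.5 for P3, 6.3 to 11.0 for adult replicates 1 to 4 and 16.7 to 17.1 for adult replicates 5 to 7. Dynll1 thus rested on 811 to 2012 reads at P1, 912 to 1500 at P3 and 20 to 166 in adults. No pair of libraries was identical.

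The members and lists were chosen with earlier results of these data known. Given in full are, for each comparison, the 5 called members with the largest differences each way, the most abundant member of each role and any member called against its role's direction, and for each list of other genes up to 3 called ones with the largest P3 difference and 1 of the lesser direction.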

Additional observations from a re-analysis of the deposited data

Results flagged for a closer look

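Of 48 groups of 4 or 7 libraries examined for the 16 genes given in full, 6 held a highest or lowest library whose gap to its neighbour, divided by the range of the group, was above Dixon's critical value, which chance exceeds in about 1 in 20 groups. Of the 6, 4 are the same library, so these groups are not independent. Adult replicate 4 stood apart for 4 genes, with 13.1 RPKM of Dynll1, 22.6 RPKM of Cetn3, 69.3 RPKM of Dynlrb1 and 9.997 RPKM of Haus1, each the highest of the 7 adults. It also had the highest adult sum of each of the 4 marker lists, with 22559 RPKM for cardiomyocyte, 198 RPKM for endothelial, 68.5 RPKM for fibroblast and 66.9 RPKM for mural markers. Its RPKM values summed to 280112 over all genes, against 145050 to 195003 in the other adults, and its denominator was the lowest of the 15 libraries. P1 replicate 1 stood apart for Cep170, at 14.1 RPKM against 7.10 to 7.86 RPKM in the other P1 libraries, and had the highest fibroblast sum of its group. P3 replicate 1 stood apart for Dynlt1b, at 60.3 RPKM against 17.0 to 23.6 RPKM in the other P3 libraries, and had the highest cardiomyocyte sum of its group. The part of other cells in these values was not tested.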

How the results depend on the processing

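The scaling decided most counts. Members called higher at P1 numbered 7 under quantile normalization, 6 under median-of-ratios scaling with or without the filter and 23 at equal RPKM sums, and those called lower 14, 13 and 3. At P3, 8 were higher under quantile normalization and 8 under median-of-ratios scaling with or without the filter, and 17, 18 and, at equal RPKM sums, 4 were lower. A pseudocount of 0.1 gave 2 lower at each age, adult replicates 5 to 7 alone gave 1 at P1 and 3 at P3, adult replicates 1 to 4 alone gave 1 at P1, and P3 replicate 1 as the P3 group gave 2. Counting only changes where the deposited or the alternative value passed, signs turned for Cep63 (-1.35 after quantile normalization, -1.40 after median-of-ratios scaling), Haus1 (-1.16 and -1.21) and Tubg1 (-0.27 and -0.32) at P1. They also turned under median-of-ratios scaling, with or without the filter, for Dynlrb1 at P1 (-0.26) and Cetn3 at P3 (-0.073). Of 1296 alternative values of the genes given in full, 1233 kept their call or lack of one, and 22 lost and 28 gained a call with the sign kept. The other 13 changed sign where the deposited or the alternative value passed. Sign changes with no call on either side, such as Tubg1 at P3 under median-of-ratios scaling, are among the 1233.

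Leaving out 1 library at a time, members called higher numbered 41 to 45 at P1 and 42 to 46 at P3, and those called lower at P1 0 to 1. In P3 against P1, 0 to 2 were higher and 0 to 1 lower. Of all 9389 genes tested, 5718 to 6027 rose at P1 and 5779 to 5987 at P3, and 15 to 300 were higher and 60 to 889 lower in P3 against P1. The log2 ratio differences ranged from 0.37 to 0.52 for Dync1li1/Dync1li2 at P1, from 0.59 to 0.96 for Tubg1/Tubg2 at P3 and from 0.73 to 1.47 for Dynlt1b/Dynlt3 at P3, on either side of the threshold. With a pseudocount of 0.5 on both genes Tubg1/Tubg2 passed, at 0.77 and 0.76.

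With adult replicates 1 to 4 or 5 to 7 alone, the fewer libraries raise the smallest p, and no ratio passed. Against replicates 1 to 4, the differences at P1 and P3 were 5.02 and 5.71 for Dynll1/Dynll2, 1.58 and 1.82 for Klc1/Klc4, 1.48 and 1.86 for Klc1/Klc2, 1.84 and 1.72 for Kif1b/Kif1c, -1.96 and -2.84 for Kif13a/Kif13b, -0.98 and -0.95 for Cetn2/Cetn3 and 1.45 and 1.56 for Dctn5/Dctn6. At P1 alone they were 0.58 for Dync1li1/Dync1li2 and 2.12 for Dynlt1b/Dynlt3. Against replicates 5 to 7, in the same order, they were 6.12 and 6.81, 1.38 and 1.63, 1.52 and 1.89, 1.49 and 1.38, -1.33 and -2.21, -0.57 and -0.54, 1.91 and 2.03, and at P1 0.26 and 1.62.

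Whether replicate numbers pair the libraries was not settled. The deviations from group means correlated between -0.506 and 0.371 for same-numbered libraries and between -0.525 and 0.665 for differently numbered ones. Same-numbered libraries thus did not stand out, but with so few libraries per group a shared day or batch is not excluded. With the replicate number as a block, 48 members were higher and 1 lower (Dynll2) at P1, 47 higher and 1 lower at P3, and none differed between P3 and P1. Adult replicates 5 to 7 share their number with no other library, so this fit takes its adult level from replicates 1 to 4, and its counts of members equal those against these replicates alone. No share of all genes stands beside these counts. Depth limits low genes: Cep170 rested on 15 to 84 reads and Haus3 on 9 to 49 reads in adult libraries.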
